A study of Mus musculus with 15 samples.

Results

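Respiratory complexes I and III are described here through the genes that encode their subunits. The genes were taken by name. The rule kept every gene whose symbol in the platform annotation starts with Ndufa, Ndufb, Ndufc, Ndufs, Ndufv or Uqcr, read from the brightest probe set that carries that symbol alone. It gave 51 of the 19938 genes with such a probe set. The filter on low signal, set over all groups together, kept 50 of the 51 among 10964 tested genes, and each of the 50 lay above it in every group. Ndufa4l2, a gene best known for its induction by low oxygen, was the member not tested, with log2 signals between 3.68 and 4.27. The 3 probe sets that name Ndufs5 or Ndufb4 together with another symbol were not used.

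RNA of sorted splenic CD4+CD25+ mouse cells, labelled Treg cells, was hybridised to single-colour Affymetrix arrays, 15 ng of total RNA to each of 15 arrays. The mice were Ikzf2-/- (without Helios, 3 arrays), double-deficient for Ikzf2 and Ikzf4 (dKO, 3 arrays), Ikzf4-/- (without Eos, 3 arrays) or wild type (WT, 6 arrays). The labels give no age, sex, strain, allele or treatment of the mice, and do not say whether replicates came from separate animals. The p-values therefore reflect only how far these arrays vary. Ikzf2-/- was compared with WT 4 to 6, and dKO and Ikzf4-/- with WT 1 to 3, since array numbering and the equal values within each set place them together.

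Complex I, the NADH:ubiquinone oxidoreductase, takes electrons from NADH in its matrix arm, hands them to ubiquinone and pumps protons through its membrane arm. Complex III, the ubiquinol:cytochrome c oxidoreductase, passes the electrons on to cytochrome c and adds to the proton gradient that drives ATP synthase. Both hold a catalytic core and many accessory subunits, nearly all encoded in the nucleus, and assembly factors build complex I in modules. Treg cells are known to rely on mitochondrial respiration, and in mice the loss of the Rieske protein of complex III (Uqcrfs1) from Treg cells impairs their suppressive function.

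Several measurements bear on every comparison. The Treg genes Foxp3, Cd4 and Il2ra had log2 signals of at least 8.78 in all 15 arrays. Ikzf2 signals were 10.06, 9.14 and 9.22 in Ikzf2-/- arrays, against 10.25, 10.38 and 10.38 in WT 4 to 6. In dKO arrays they were 10.11, 10.16 and 10.59, against 10.46, 10.74 and 10.76 in WT 1 to 3, so dKO 3 lay within the WT range. Ikzf4 was 8.22, 8.13 and 8.19 in Ikzf4-/- arrays, against 7.83, 8.07 and 8.02 in WT 1 to 3, and whether the probes fall inside the deleted parts is not known here. The sets differed widely: 39 of the 50 members were lower in WT 4 to 6 than in WT 1 to 3 at an adjusted p under 0.05 in limma, beside 58.6% of all genes. The B cell list mean stood apart in Ikzf2-/- 3 (8.0, with the rest of its set at 5.16 to 5.97) and in WT 1 (7.02, with the rest of its set at 4.66 to 4.81). Both arrays also had the highest neutrophil list mean of their set, 9.39 and 7.14. Ikzf2-/- 2 had the lowest array weight, 0.127, and the lowest mean of T and Treg cell markers, 9.84, where the rest of its set lay at 10.12 to 10.33. Ikzf2-/- 3 had the next lowest weight, 0.365, and Ikzf2-/- 1 had 2.25. A fit with array weights therefore reads Ikzf2-/- cells mostly from Ikzf2-/- 1.

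The main comparison asked how complex I and III genes stood in cells without Helios. The members were mostly higher in Ikzf2-/- cells than in WT 4 to 6, by small amounts. Their median log2 change was 0.25 (interquartile range 0.18 to 0.37), a fold of 1.19, against a median of 0.020 over all tested genes. Of the 50 members 47 had a change above 0, beside 54.5% of all genes, and Ndufs1, Ndufs5 and Ndufv1 had one below 0. No member passed limma's adjusted threshold of 0.05 (0 of 50, beside 0.0638% of all genes, that is 7 genes), the smallest adjusted p being 0.0700 for Ndufb10. That fit shares its spread over all groups, and Ikzf2-/- arrays varied most. The median SD of all tested genes was 0.193 in them, against 0.0922 to 0.110 in the other groups. With only the groups compared, the adjusted p of Ndufb10 in limma was 0.546. At an unadjusted p under 0.05, 26 of 50 members were higher, beside 10.9% of all genes, and 0 of 50 were lower, beside 5.45%. For 26 members the lowest Ikzf2-/- array exceeded the highest of WT 4 to 6, beside 10.7% of all genes, and for 0 members the reverse held, beside 5.5%. Members varied together within groups. Deviations from the group means correlated at a mean of 0.27 between pairs of members over all 15 arrays, against 0.031 between pairs of all genes. The counts above are therefore not counts of independent genes. In bulk samples such as these, fewer cells of a type and less RNA per cell cannot be told apart.

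**Figure D1:**
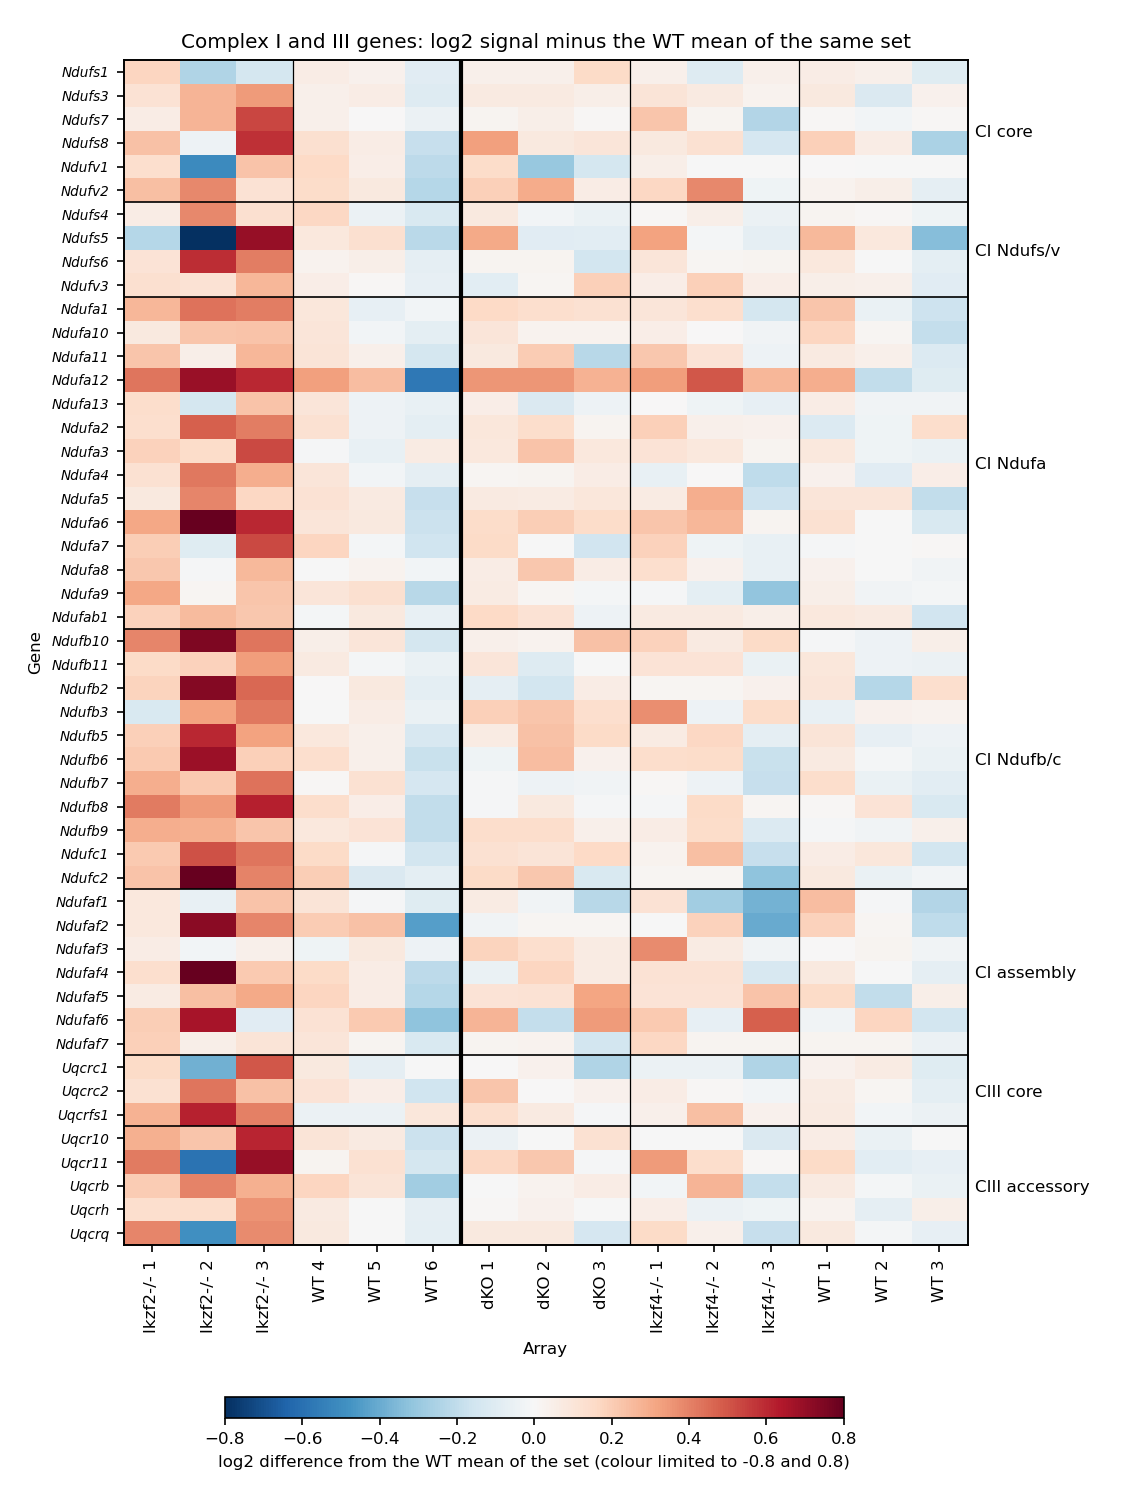
Log2 signal of the 50 tested genes (rows, grouped by role) in each of the 15 arrays (columns), minus the WT mean of the same set; red is higher and blue lower, and the colour scale ends at -0.8 and 0.8. CI and CIII are complexes I and III; Ikzf2-/- columns are mostly red, with blue cells in Ikzf2-/- 2 for Ndufs5, Uqcr11, Ndufv1, Uqcrq and Uqcrc1, and WT 6 is mostly pale blue.

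The 5 members with the smallest p values are given with all their arrays. Ndufb10, an accessory subunit on the intermembrane side of the complex I membrane arm, had log2 signals of 9.22, 9.57 and 9.25 in Ikzf2-/- arrays, against 8.87, 8.92 and 8.68 in WT 4 to 6. All Ikzf2-/- arrays lay above all 3 WT arrays. Its change was 0.52 (SE 0.10), a fold of 1.44, with an adjusted p of 0.0700 in limma. Uqcrfs1, the Rieske iron-sulfur protein that takes electrons from ubiquinol in complex III, read 7.96, 8.30 and 8.09 in Ikzf2-/- arrays, against 7.63, 7.63 and 7.77 in WT 4 to 6. The groups did not overlap, and WT 6 was the highest WT array here, though the lowest for the other 4 named members. The change was 0.43 (SE 0.096, limma adjusted p = 0.0821).

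Ndufb8, a membrane-arm subunit often used as a protein marker of assembled complex I, read 8.66, 8.58 and 8.86 in Ikzf2-/- arrays, against 8.38, 8.29 and 8.05 in WT 4 to 6. Again no arrays overlapped, and Ikzf2-/- 3 was the highest. Its change was 0.46 (SE 0.10, limma adjusted p = 0.0848). Ndufa6, a matrix-arm subunit that binds the mitochondrial acyl carrier protein, had the largest change of any member, with 8.68, 9.45 and 8.97 in Ikzf2-/- arrays, against 8.47, 8.45 and 8.20 in WT 4 to 6. Ikzf2-/- 2 was far above the other Ikzf2-/- arrays. The change of 0.66 (SE 0.15, limma adjusted p = 0.0848), a fold of 1.58, was 0.45 without that array. Ndufb2, a small membrane-arm subunit, read 7.87, 8.44 and 8.16 in Ikzf2-/- arrays, against 7.70, 7.78 and 7.62 in WT 4 to 6. Ikzf2-/- 1 lay only just above WT 5, and the change was 0.46 (SE 0.13, limma adjusted p = 0.121).

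**Figure D2:**
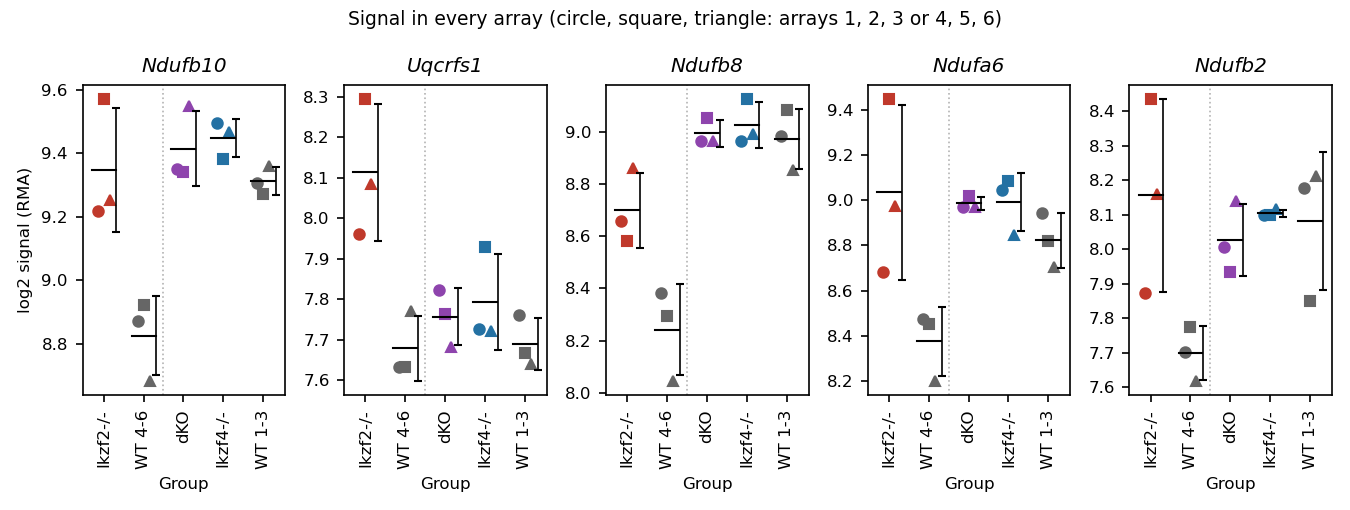
Log2 signal (vertical axis, a separate scale in each panel) of the 5 named members in the 15 arrays by group; points are arrays, horizontal lines group means and error bars 1 SD (n = 3), and the dotted line parts the sets. In every panel the Ikzf2-/- points lie above the WT 4 to 6 points, and the means of dKO, Ikzf4-/- and WT 1 to 3 lie closer together than the means of Ikzf2-/- and WT 4 to 6.

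Promoter windows of these genes were examined because many members differed from WT in the same direction. Of the 51 members 43 matched a RefSeq window of 250 bases before to 50 bases after a transcript start (GRCm38.p6), 45 windows in all. The 120 bases before the start are shown for the 4 members with the smallest p values, each on the minus strand and written 5′ to 3′. Ndufb10 is at chr17:24724424-24724543, Uqcrfs1 at chr13:30545317-30545436, Ndufb8 at chr19:44555443-44555562 and Ndufa6 at chr15:82354292-82354411. Capitals mark a match to the NRF1 half-site letters, which begins 83 bases before the start of Ndufa6.
Ndufb10: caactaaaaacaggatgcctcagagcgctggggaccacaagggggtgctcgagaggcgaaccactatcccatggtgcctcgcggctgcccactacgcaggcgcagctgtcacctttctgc
Uqcrfs1: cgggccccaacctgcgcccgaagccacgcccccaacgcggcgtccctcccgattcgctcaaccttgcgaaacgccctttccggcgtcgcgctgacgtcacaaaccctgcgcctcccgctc
Ndufb8: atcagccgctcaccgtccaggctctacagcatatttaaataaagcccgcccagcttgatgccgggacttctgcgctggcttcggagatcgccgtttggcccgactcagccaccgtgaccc
Ndufa6: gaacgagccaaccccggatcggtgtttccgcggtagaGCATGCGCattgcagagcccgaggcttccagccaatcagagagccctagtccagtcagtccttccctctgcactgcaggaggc
The letters of 3 motifs, of factors known to act at nuclear genes for mitochondrial proteins, were searched on both strands of the whole windows, and the YY1 and ETS letters can share the bases AAG. The NRF1 half-site GCATGCGC was in 7 of 45 member windows (15.6%), against 2.71% of 32851 windows of all genes. The YY1 letters AAGATGGC were in 7 (15.6%), against 2.75%, and Ndufb8 held its match outside the stretch shown. The ETS letters CCGGAAG, read by GABP among others, were in 7 (15.6%), against 8.86%. Members with a match included Ndufa6, Ndufa8 and Uqcrc1 for NRF1, Ndufb8, Ndufc1, Ndufs6 and Ndufs7 for YY1, and Ndufb6, Ndufs3 and Uqcrh for ETS, while Uqcr11 held both the NRF1 and the ETS letters. A match describes the letters of the window and is not a measured binding site.

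By role, the members of the membrane arm named Ndufb or Ndufc had the highest median change in Ikzf2-/- cells, 0.37 over 11 genes. All 11 were above 0, and 10 were higher at an unadjusted p under 0.05, the exception being Ndufb3 (0.21, SE 0.13). The counts at this level in each role are to be read against the 10.9% of all genes that were higher. The accessory Ndufa genes had a median of 0.21, with 14 of 14 above 0 and 7 higher at that level, and ranged from 0.078 for Ndufa13 to 0.66 for Ndufa6. By its name Ndufa4 is 1 of these 7, at 0.28 (SE 0.090), though its protein is now counted with complex IV. The Ndufs and Ndufv accessory genes were more uneven, with a median of 0.18 and values from -0.12 for Ndufs5 to 0.37 for Ndufs6, a zinc-binding subunit of the NADH module (SE 0.11). Their 4 genes included 1 that was higher at an unadjusted p under 0.05. The difference between role classes was not tested.

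The catalytic core of complex I carries the flavin and the iron-sulfur clusters, and 6 of its genes were tested. Their median change in Ikzf2-/- cells was 0.24, and 2 of the 6 were higher at an unadjusted p under 0.05. Ndufs7, which holds the last iron-sulfur cluster before ubiquinone, stood at 0.29 (SE 0.12), and Ndufs3 at 0.24 (SE 0.082). Ndufs8 stood at 0.26 (SE 0.16) and Ndufv2 at 0.25 (SE 0.12). Ndufs1, the largest core subunit, was at -0.071 (SE 0.10), and Ndufv1, which binds NADH and the flavin, at -0.049 (SE 0.17). Both of these values lay within 1 SE of 0, so neither gene showed a direction. The 2 genes were read at 7.21 and 6.73 in Ikzf2-/- 2, below every WT array of the set. Ndufs1 was also below them in Ikzf2-/- 3, at 7.32.

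The 7 assembly factors named Ndufaf1 to Ndufaf7 help to build complex I and are not part of the finished enzyme. All 7 had changes above 0 in Ikzf2-/- cells, with a median of 0.20, but no factor had groups free of overlap, beside 10.7% of all genes, and 1 was higher at an unadjusted p under 0.05, a share near the 10.9% of all genes. It was Ndufaf4, an early factor that works with Ndufaf3, at 0.44 (SE 0.18), with 7.26, 8.09 and 7.34 in Ikzf2-/- arrays against 7.28, 7.19 and 6.92 in WT 4 to 6. Ikzf2-/- 2 alone stood apart there. Its partner Ndufaf3 stood at 0.027 (SE 0.094).

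For complex III, the 3 catalytic and core genes had a median change of 0.26 in Ikzf2-/- cells. Beside Uqcrfs1, the core protein gene Uqcrc2 stood at 0.26 (SE 0.099), with no overlap between groups, and its partner Uqcrc1 at 0.089 (SE 0.17). The 5 small accessory genes had a median of 0.21, from 0.092 for Uqcrq to 0.37 for Uqcr10 (SE 0.11), and 3 of the 5 were higher at an unadjusted p under 0.05, beside 10.9% of all genes. Cyc1, the cytochrome c1 gene that the naming rule leaves out, stood at 0.14 (SE 0.12). The mitochondrially encoded subunits of both complexes were not analysed here.

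The Ikzf2-/- arrays did not carry the same pattern. In Ikzf2-/- 1 the median difference of the members from the WT 4 to 6 mean was 0.19, against 0.043 for all genes, and 38 members lay above the WT range, beside 36.6% of all genes. In Ikzf2-/- 3 it was 0.34, against 0.079 for all genes, and 45 members lay above the range, beside 46.2% of all genes. In both arrays the members lay mostly on the same side of WT. In Ikzf2-/- 2 the median was 0.27, against -0.027 for all genes, but the members were spread widely, with an interquartile range of 0.48, where Ikzf2-/- 1 had 0.11 and Ikzf2-/- 3 had 0.20. There 35 members lay above the WT range, beside 31.7% of all genes, and 7 lay below it, beside 40.1% of all genes: Ndufa13, Ndufs1, Ndufs5, Ndufv1, Uqcr11, Uqcrc1 and Uqcrq. Ndufs5, an accessory subunit of the intermembrane side, was the extreme, at 8.82, 8.24 and 9.75 in Ikzf2-/- arrays, against 9.14, 9.18 and 8.84 in WT 4 to 6.

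The WT arrays of the set differed in the members as well. WT 6 lay 0.19 below the other WT arrays of its set at the median of the members, against 0.053 below for all genes, and Ndufa12, an accessory subunit of the matrix arm, had the largest drop there, at 7.55, against 8.45 and 8.37 in WT 4 and WT 5. Without WT 6, 16 members were higher in Ikzf2-/- cells at an unadjusted p under 0.05, beside 6.39% of all genes, and the members' median exceeded that of all genes by 0.17, against 0.23 with all arrays. Without Ikzf2-/- 1, 10 members passed the adjusted threshold, beside 3.73% of all genes (409 genes, against 7 with all arrays), the 5 named above among them, with adjusted p in limma between 0.0112 for Ndufa6 and 0.0447 for Ndufb8. Without Ikzf2-/- 2, 3 passed, beside 1.52% of all genes, with Ndufb10 (0.41, adjusted p = 0.0459) and Ndufb8 (0.52, adjusted p = 0.0424) among them. The members' median exceeded that of all genes by 0.18 without Ikzf2-/- 2. Without both arrays rich in B cell markers (WT 1 and Ikzf2-/- 3) it exceeded it by 0.23, 22 members were higher at an unadjusted p under 0.05, beside 8.69% of all genes, and 0 passed the adjusted threshold, beside 0.0274%.

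Markers of other cells and of division differed between the same groups. The mean of 12 B cell genes was 5.97, 5.16 and 8.0 in Ikzf2-/- arrays, against 5.25, 5.49 and 5.20 in WT 4 to 6. The mean of the neutrophil genes was 6.98, 6.32 and 9.39 in Ikzf2-/- arrays, against 5.77, 5.12 and 5.81 in WT 4 to 6, with 5 of 6 tested genes higher at an unadjusted p under 0.05, beside 10.9% of all genes. The cell cycle genes had means of 6.77, 6.41 and 7.34 in Ikzf2-/- arrays, against 6.40, 6.32 and 6.11 in WT 4 to 6, a median change of 0.59, and 14 of 28 were higher at that level. Of these 3 lists only the B cell mean overlapped between groups. Smaller lists had medians of 0.45 (macrophage and dendritic cell, 3 tested genes), 0.29 (CD8 T and NK cell, 2) and -0.10 (erythroid, 2), and the T and Treg cell markers had -0.059 (10). The part of B cells, neutrophils and dividing cells in the members' values was not tested.

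Other genes of mitochondrial energy metabolism gave smaller medians than the 0.25 of complexes I and III in Ikzf2-/- cells, and the differences between lists were not tested. The ATP synthase list (complex V) came nearest, with a median of 0.21 and 7 of 16 genes higher at an unadjusted p under 0.05, beside 10.9% of all genes, the share to set beside the counts of the other lists too. Its highest gene was Atpif1, the inhibitor of the enzyme's reverse reaction, at 0.43 (SE 0.10), and its lowest was Atp5g2 at -0.28 (SE 0.30). Complex IV with cytochrome c had 0.17 and 7 of 17, led by Cox6a1 (0.35, SE 0.077). Complex II had 0.12 and 2 of 8, and the citric acid cycle 0.13 and 6 of 14, with fumarase (Fh1) highest at 0.38 (SE 0.14).

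Glycolysis genes had a median of 0.094 in Ikzf2-/- cells and 1 of 12 was higher at an unadjusted p under 0.05, near the 10.9% of all genes, with Pgk1 at 0.36 (SE 0.088). Further complex III genes with other names, mostly assembly factors, had a median of 0.16, with Uqcc2 highest at 0.69 (SE 0.15) and Ttc19 lowest at -0.37 (SE 0.11). Complex I assembly factors with other names had 0.094, with Dmac1 highest at 0.70 (SE 0.23) and Foxred1 lowest at -0.45 (SE 0.17). Regulators of mitochondrial genes had 0.093, with Myc highest at 0.31 (SE 0.14) and Esrra, a nuclear receptor that drives respiratory genes, lowest at -0.24 (SE 0.085). No gene of these 8 lists passed the adjusted threshold.

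**Figure D3:**
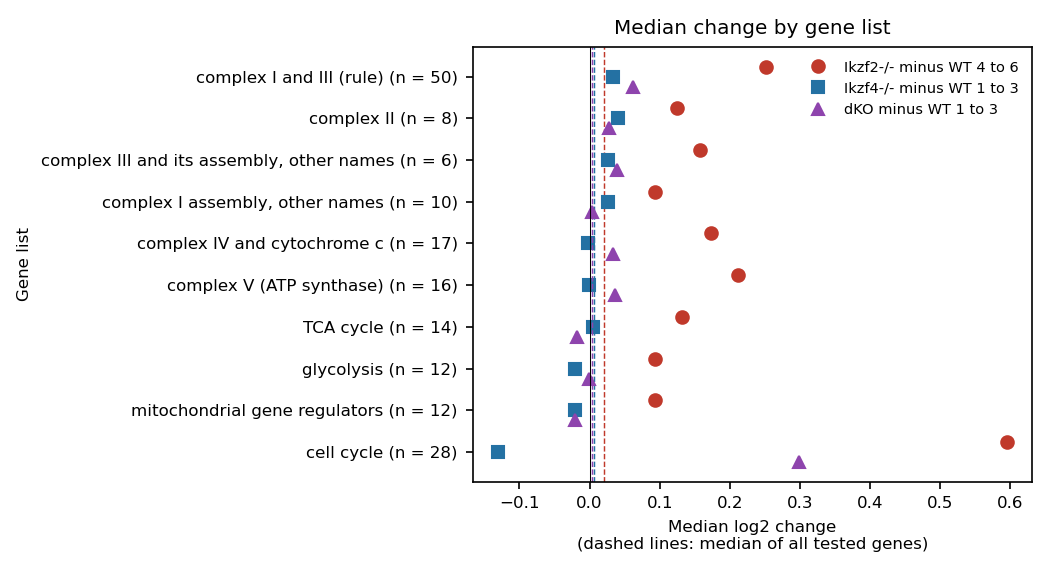
Median log2 change (horizontal axis) of the tested genes of each list, with the number of genes in brackets, for Ikzf2-/- against WT 4 to 6 (circles), Ikzf4-/- against WT 1 to 3 (squares) and dKO against WT 1 to 3 (triangles); dashed lines are the medians of all tested genes. In Ikzf2-/- cells complexes I and III stand at 0.25 and the cell cycle list at 0.59, while the other comparisons give the metabolic lists medians between -0.021 and 0.062.

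Loss of Eos alone came with small differences in the members. In Ikzf4-/- cells the median change from WT 1 to 3 was 0.034, against 0.0060 for all genes, and 39 of 50 members were above 0, beside 52.9% of all genes. Limma called 0 of 50 members (beside 0% of all genes) at the adjusted threshold, and 0 at an unadjusted p under 0.05 in either direction, beside 1.16% of genes higher and 1.02% lower. With replicate number as a block, 3 members were higher at that level (Ndufa6, Ndufa12 and Ndufv2), beside 2.64% of all genes, and 1 was lower (Ndufaf1), beside 2.26%, while 0 passed the adjusted threshold. Ndufb10 and Ndufv3, a small subunit of the NADH module, were higher in Ikzf4-/- cells with no overlap between groups, 2 of 50 beside 3.62% of all genes. Ndufb10 read 9.50, 9.38 and 9.47 in Ikzf4-/- arrays, against 9.31, 9.27 and 9.36 in WT 1 to 3.

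Ndufa12 had the smallest p in that comparison, with 9.07, 9.23 and 9.0 in Ikzf4-/- arrays, against 9.03, 8.54 and 8.64 in WT 1 to 3. WT 1 lay within the Ikzf4-/- range, and the change was 0.37 (SE 0.19, limma adjusted p = 1). Ndufaf3 read 8.51, 8.20 and 8.10 in Ikzf4-/- arrays, against 8.13, 8.15 and 8.10 in WT 1 to 3 (change 0.14, SE 0.094), so that Ikzf4-/- 1 alone stood out, and the change was 0.019 without it and 0.22 without Ikzf4-/- 3. Ndufv2, a core subunit of the NADH module, read 8.95, 9.17 and 8.74 in Ikzf4-/- arrays, against 8.81, 8.83 and 8.71 in WT 1 to 3, with overlap (change 0.17, SE 0.12). The change was 0.065 without Ikzf4-/- 2 and 0.28 without Ikzf4-/- 3. The other core genes of complex I lay between -0.0062 (Ndufs1, SE 0.10) and 0.069 (Ndufs3, SE 0.082), with Ndufs7 at 0.0024 (SE 0.12), Ndufs8 at 0.021 (SE 0.16) and Ndufv1 at 0.014 (SE 0.17). Uqcrfs1 stood at 0.10 (SE 0.096), Uqcrc2 at 0.015 (SE 0.099) and Uqcrc1 at -0.11 (SE 0.17). Ikzf4-/- 3 differed from its group, with 23 members below the WT range, beside 23.98% of all genes. In Ikzf4-/- 1 there were 0, beside 16.0%, and in Ikzf4-/- 2 there were 5, beside 22.7%. Without it the members' median exceeded that of all genes by 0.088, and without WT 1 by 0.063, against 0.028 with all arrays. In Ikzf4-/- cells the median change of B cell genes was -0.77 (0 of 12 above 0), the neutrophil list had -0.54 (6 genes) and the macrophage and dendritic cell list -0.53, with 3 of 3 genes lower at an unadjusted p under 0.05, beside 1.02% of all genes. The B cell value rests on WT 1, with a list mean of 7.02. WT 2 and WT 3 lay at 4.75 and 4.77, and Ikzf4-/- arrays at 4.66 to 4.81. The neutrophil value rests on WT 1 as well, at 7.14, with WT 2 and WT 3 at 4.53 and 5.06. Ikzf4-/- arrays had neutrophil means of 5.26, 4.48 and 5.13. For the macrophage and dendritic cell list WT 1 was the highest WT array, at 7.16, against 5.97 and 6.63. Ikzf4-/- arrays lay below all of these, at 5.87, 5.11 and 5.76. The part of these cells in the members' values was not tested.

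Loss of both factors also came with small differences, read against the same 3 WT arrays. In dKO cells the median change of the members from WT 1 to 3 was 0.062, against 0.0039 for all genes, and 41 of 50 were above 0, beside 51.8% of all genes. Limma called 0 of 50 members at the adjusted threshold, beside 0.0638% of all genes, and 0 at an unadjusted p under 0.05, beside 2.39% of genes higher and 1.99% lower. For 7 members (Ndufv2, Ndufa6, Ndufa8, Ndufb3, Ndufb9, Ndufc1 and Ndufaf3) all dKO arrays exceeded all 3 WT arrays, beside 5.34% of all genes. Ndufa12 read 9.09, 9.09 and 9.02 in dKO arrays, against the WT values above, a change of 0.33 (SE 0.19, limma adjusted p = 1). Ndufaf5, which hydroxylates Ndufs7 during assembly, read 7.31, 7.31 and 7.51 in dKO arrays, against 7.35, 7.0 and 7.24 in WT 1 to 3 (change 0.18, SE 0.12), with overlap through WT 1. The change was 0.082 without WT 2 and 0.11 without dKO 3. Ndufv2 read 8.97, 9.08 and 8.84 in dKO arrays, with a change of 0.18 (SE 0.12).

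The core genes of complex I in dKO cells ranged from -0.099 (SE 0.17) for Ndufv1 to the 0.18 of Ndufv2, with Ndufs8 at 0.17 (SE 0.16), Ndufs1 at 0.080 (SE 0.10), Ndufs3 at 0.064 (SE 0.082) and Ndufs7 at 0.025 (SE 0.12). Uqcrc2 stood at 0.087 (SE 0.099), Uqcrfs1 at 0.067 (SE 0.096) and Uqcrc1 at -0.068 (SE 0.17). The 5 members leading in Ikzf2-/- cells had small values in dKO cells, with Ndufa6 at 0.16 (SE 0.15), Ndufb10 at 0.10 (SE 0.10), Ndufb8 at 0.022 (SE 0.10) and Ndufb2 at -0.054 (SE 0.13). Without WT 1, which was rich in B cell markers, the members' median exceeded that of all genes by 0.095, against 0.058 with all arrays. The cell cycle list had a median change of 0.30 in dKO cells, beside the 0.062 of the members, the B cell list -0.80 (12 genes) and the macrophage and dendritic cell list -0.41 (3 genes), and their part in the members' values was not tested. The B cell value again rests on WT 1, since WT 2 and WT 3 had list means of 4.75 and 4.77 and dKO arrays 4.66 to 4.71.

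By genotype label, the direct comparison of dKO with Ikzf4-/- cells read loss of Helios where Eos was already absent. Ikzf2 signal itself changed by -0.38 (SE 0.20). In dKO 3 it was 10.59, within the Ikzf4-/- arrays at 10.49, 10.71 and 10.81. The members' median change was 0.013, against -0.0015 for all genes, and 29 of 50 were above 0, beside 49.4% of all genes. Limma called 0 of 50 at the adjusted threshold, beside 0.0274% of all genes, and 0 at an unadjusted p under 0.05, beside 1.79% of genes higher and 1.69% lower. Ndufa9, a subunit at the junction of both arms, read 8.75, 8.70 and 8.67 in dKO arrays, against 8.67, 8.61 and 8.37 in Ikzf4-/- arrays (change 0.16, SE 0.11). Ikzf4-/- 3 was the low array there, the groups met at 8.67, and the change was 0.069 without that array. Ndufa4, a small protein now counted with complex IV, read 10.80, 10.80 and 10.84 in dKO arrays, against 10.72, 10.79 and 10.58 in Ikzf4-/- arrays (change 0.12, SE 0.090), the only member of 50 without overlap, beside 4.09% of all genes. Without Ikzf4-/- 3 its change was 0.058. Ndufaf7, an assembly factor of complex I, read 6.88, 6.88 and 6.70 in dKO arrays, against 7.02, 6.88 and 6.88 in Ikzf4-/- arrays (change -0.10, SE 0.084). There dKO 3 was the low array and Ikzf4-/- 1 the high one, with the other 4 arrays at 6.88, and the change was -0.046 without dKO 3 and -0.057 without Ikzf4-/- 1. Core genes of complex I ran from -0.11 (SE 0.17) for Ndufv1 to 0.15 (SE 0.16) for Ndufs8, with Ndufs1 at 0.086 (SE 0.10), Ndufs7 at 0.023 (SE 0.12), Ndufv2 at 0.0098 (SE 0.12) and Ndufs3 at -0.0048 (SE 0.082). In complex III, Uqcrc2 stood at 0.073 (SE 0.099), Uqcrc1 at 0.045 (SE 0.17) and Uqcrfs1 at -0.036 (SE 0.096). In this contrast the cell cycle list stood at a median of 0.41 (28 genes) and the neutrophil list at 0.40 (6 genes), and their part in the members' values was not tested.

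The values for loss of Helios with and without Eos loss were then compared with each other, as dKO minus Ikzf4-/- less Ikzf2-/- minus WT 4 to 6. The sides of this difference share no array, but the side with Eos loss lies wholly in the first set and the other wholly in the second. Eos status and array set therefore cannot be told apart in it. Its median over the members was -0.23, against -0.022 over all genes, and 3 of 50 members were above 0, beside 45.4% of all genes. No member passed the adjusted threshold in limma (0 of 50, beside 0% of all genes), the smallest adjusted p being 0.760. At an unadjusted p under 0.05, 9 of 50 members were lower, beside 4.49% of all genes, and 0 were higher, beside 1.81%. Ndufb10 had the smallest p, with a difference of -0.56 (SE 0.15, limma adjusted p = 0.760) from changes of -0.034 with and 0.52 without Eos loss. Uqcrfs1 followed at -0.47 (SE 0.14, limma adjusted p = 0.760), from -0.036 with and 0.43 without Eos loss. Ndufa6 had the largest difference, -0.67 (SE 0.22), and among the core genes of complex I the values ran from -0.27 (SE 0.17) for Ndufs7 to 0.16 (SE 0.14) for Ndufs1. Ndufs3 stood at -0.25 (SE 0.12), Ndufv2 at -0.24 (SE 0.17), Ndufs8 at -0.11 (SE 0.22) and Ndufv1 at -0.065 (SE 0.24). Of the core proteins of complex III, Uqcrc2 stood at -0.19 (SE 0.14) and Uqcrc1 at -0.044 (SE 0.23). Leaving out Ikzf2-/- 1 gave 16 members lower at an unadjusted p under 0.05, beside 6.90% of all genes, and leaving out Ikzf4-/- 3 gave 14, beside 4.75%. Marker lists of other cells also differed in this contrast, with medians of -1.01 for B cells (12 genes), -1.22 for neutrophils (6 genes, 2 of them lower at an unadjusted p under 0.05) and -0.15 for the cell cycle (28 genes), and their part in the members' values was not tested.

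**Figure D4:**
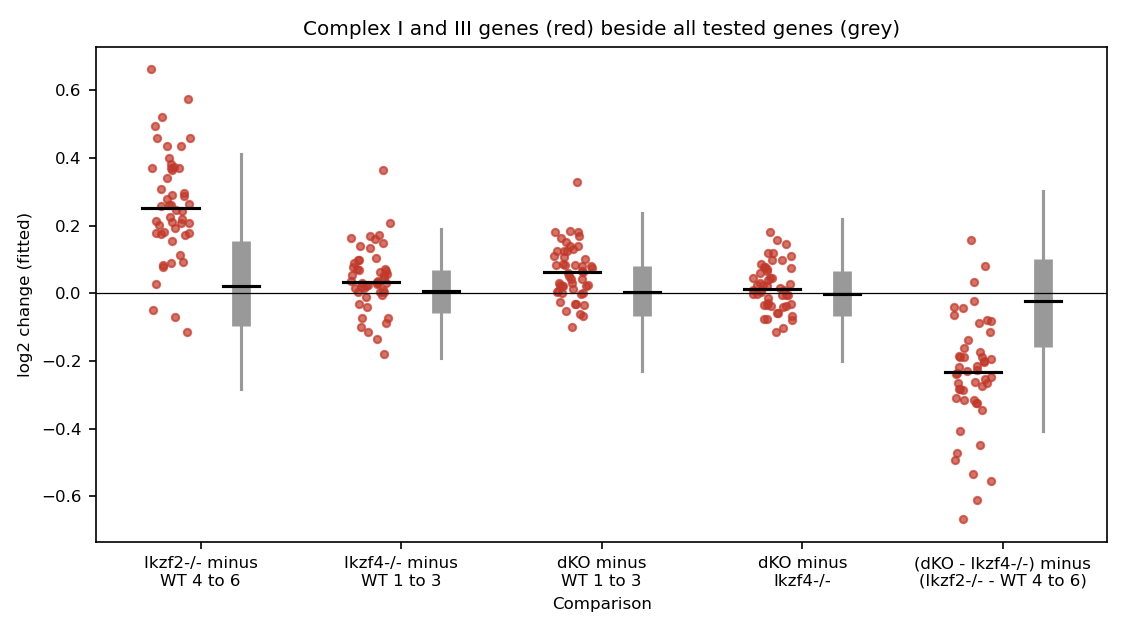
Fitted log2 change (vertical axis) of the 50 tested complex I and III genes (red points, black line at their median) in each of 5 comparisons, beside all 10964 tested genes (grey bar from the 25th to the 75th percentile, line from the 5th to the 95th, black line at the median). The red median is 0.25 for Ikzf2-/- against WT 4 to 6 and -0.23 for the difference on the right, and it lies between 0.013 and 0.062 in the other comparisons.

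Averaged over the 50 members in each array, log2 signal was 8.60 ± 0.08 in Ikzf2-/- arrays and 8.34 ± 0.12 in WT 4 to 6 (SD, n = 3 each). It was 8.89 ± 0.03 in dKO arrays, 8.87 ± 0.09 in Ikzf4-/- arrays and 8.82 ± 0.07 in WT 1 to 3 (SD, n = 3 each). In the second set the groups differed by more than these SDs, and in the first set by less than the largest of them. Taken relative to the median of all tested genes in the same array, the members stood 1.97 ± 0.10 above it in Ikzf2-/- arrays and 1.76 ± 0.08 above it in WT 4 to 6 (SD, n = 3 each). Ikzf2-/- 1 lay at 1.87 on this scale and WT 4 at 1.84, so that the groups came close without overlap. On the same scale dKO arrays stood at 1.86, Ikzf4-/- arrays at 1.85 and WT 1 to 3 at 1.81.

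For 7 members further probe sets with the same symbol could be read. In Ikzf2-/- cells they gave values close to those of the brightest probe set for Ndufa11 (0.19 and 0.18), Ndufab1 (0.18 and 0.22), Ndufb11 (0.20 and 0.22), Ndufc1 (0.40 and 0.38), Ndufs3 (0.24 and 0.24) and Uqcrb (0.28, 0.28 and 0.30). They did not for Uqcr11, a small subunit of complex III, where the second probe set gave 0.0038 and the brightest 0.17. Uqcr11 was also 1 of the members that differed most between Ikzf2-/- arrays, at 8.28, 7.27 and 8.55, against 7.88, 7.98 and 7.72 in WT 4 to 6.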

How the data were processed

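Log2 signals of 35556 probe sets were deposited by the authors, made with Affymetrix Expression Console 1.3.1 and RMA, per the submitters' processing notes. RMA compresses changes of dim genes, and no scanner file was used here. Of the probe sets 21789 had 1 symbol, 1621 had several and 12146 were not listed; 21698 symbols were updated to GRCm38.p6. Tested genes had at least 1 group mean above log2 4.96, the median of all probe set means. The 15 arrays entered a limma 3.58.1 fit (R 4.3.3) with 5 group means, 10 residual and 3.72 prior degrees of freedom, and p-values were adjusted by Benjamini-Hochberg over all 10964 genes. The procedure was tested on simulated data, with genes drawn independently and the spread of the arrays other than Ikzf2-/-. The wider spread of Ikzf2-/- arrays and the shared variation of members were not part of it, so it does not represent the main comparison in full. The sets follow from array numbering; pairs of arrays had exactly equal values, to every deposited digit, in a mean of 2286 probe sets a pair within the first set, 34.4 within the second and 0.0741 across sets.

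The members, lists and tests were chosen with earlier results of these data known. Members shown in every array were the 5 with the smallest p in Ikzf2-/- cells, the 3 in each comparison within the first set and the 2 for the difference; core genes were always named. Replicate numbers were checked as pairs: deviations of same-numbered arrays correlated at 0.138, 0.217 and 0.303 between Ikzf4-/- and WT, 0.428, 0.196 and 0.267 between dKO and Ikzf4-/-, and 0.0708, 0.0450 and 0.173 between dKO and WT. Arrays of unlike number were not correlated, so these values cannot decide whether the numbers mark pairs. The number of arrays limits the precision.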

Additional observations from a re-analysis of the deposited data

How the results depend on the processing

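In Ikzf2-/- against WT 4 to 6, the members' median exceeded that of all genes in every alternative, by 0.132 with array weights and by 0.169 to 0.280 on leaving out 1 array. Members past the adjusted threshold in either direction numbered 0, but 1 under the stricter filter (Ndufb10, limma adjusted p = 0.0494, with fewer genes tested, beside 0.457% of all genes). They numbered 8 with all 6 WT arrays pooled (beside 28.98% of all genes), where the members' median change was 0.051, and 0 to 10 on leaving out 1 array (10 beside 3.73%). Members higher at an unadjusted p under 0.05 numbered 26, beside 10.9% of all genes. They numbered 16 with each array centred on the median of tested genes (beside 6.96%), 15 with only the groups compared (6.33%) and 15 with array weights (11.2%). The weighted values rest mostly on Ikzf2-/- 1, whose weight was 2.25. With WT pooled 8 were higher (beside 4.95%) and 9 lower (beside 37.4%). On leaving out 1 array 16 to 31 were higher (16 beside 6.39%, 31 beside 10.5%). The fit of only the groups compared has fewer samples and rests more on the Ikzf2-/- arrays, whose spread was the widest. The part of each in the lower count was not tested. Members free of overlap numbered 26 (beside 10.7% of all genes), but 17 with centred arrays and 17 after renewed quantile normalization. For these 2 settings the share of all genes is not given here. Pooling WT also called 22 members in Ikzf4-/- (beside 32.3% of all genes) and 31 in dKO against WT (beside 34.6%), since pooled WT adds arrays of another set. On leaving out 1 array, the members' excess ranged from 0.0102 to 0.0876 in Ikzf4-/- and from 0.0329 to 0.0950 in dKO against WT, which was 0.0950 without WT 1 and Ikzf2-/- 3. It ranged from -0.0201 to 0.0530 in dKO against Ikzf4-/-, with either sign. For Helios loss with against without Eos loss, the excess was -0.115 with array weights and -0.247 to -0.150 on leaving out 1 array. Members lower at an unadjusted p under 0.05 numbered 9 (beside 4.49% of all genes), but 4 with WT pooled (beside 2.13%). On leaving out 1 array they numbered 6 to 16 (6 beside 2.74% to 4.39%, 16 beside 6.90%). Where no reason is given, the cause was not tested. With replicate number as a block in the 3 comparisons of the first set, 0 members passed the adjusted threshold, as without it. At an unadjusted p under 0.05 the block gave 3 higher and 1 lower in Ikzf4-/- against WT, 2 higher in dKO against WT (Ndufa12 and Ndufv2, beside 4.82% of all genes) and 0 in dKO against Ikzf4-/-, against 0 in each without it. Counts at an unadjusted p and of overlap were chosen after seeing the data. The 3 arrays per group limit every call.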
